A study of Mus musculus with 6 samples.

Results

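The genes described here were the 3 subunits of the epithelial sodium channel (ENaC), Scnn1a, Scnn1b and Scnn1g, and 7 genes of corticosteroid signalling: Sgk1, Nedd4l, Nr3c1, Nr3c2, Hsd11b1, Hsd11b2 and Tsc22d3. They were chosen by gene symbol, and every probe set whose platform annotation named 1 of them was taken. This gave 10 genes and 23 probe sets out of 18193 genes and 45037 probe sets measured. Total RNA of adult mouse stria vascularis, the K+-secreting epithelium that lines the lateral wall of the cochlear duct, was hybridised to 6 Affymetrix mouse gene chips, 3 for each genotype. Slc26a4+/+ mice (P148 on average) carried an intact gene for pendrin, an anion exchanger, and Slc26a4-/- mice (P153 on average) lacked a complete copy of it and served as a model of Pendred syndrome. No treatment is given for either genotype. RNA of 2 animals was pooled for each array, blood was not flushed from the vessels, and the RNA was amplified in 2 rounds. Each value below is a signal, the background-corrected and array-scaled brightness of a probe set on a linear scale, and signals of different probe sets cannot be ranked against each other. Since each array held a bulk tissue, fewer cells of a type and less RNA per cell cannot be told apart.

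ENaC is a channel of α, β and γ subunits through which epithelia absorb Na+ across their apical membrane. Aldosterone acts on the mineralocorticoid receptor (Nr3c2) and glucocorticoids on the glucocorticoid receptor (Nr3c1), and either receptor can raise channel activity, in part through the kinase SGK1. SGK1 phosphorylates the ubiquitin ligase NEDD4L, which otherwise removes ENaC from the membrane. The enzymes HSD11B1 and HSD11B2 work in opposite directions: the first regenerates active glucocorticoid from its inert form, and the second inactivates glucocorticoid and thereby keeps it away from the mineralocorticoid receptor. In the cochlea ENaC is known from Reissner's membrane and the outer sulcus, where it takes up Na+ from endolymph, while marginal cells of stria vascularis secrete K+.

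Promoter sequences were available for 6 of the 10 genes, with 13 transcription starts between them. RefSeq windows on GRCm38.p6, from 250 bases before to 50 bases after each start, were searched on both strands for the arm of the glucocorticoid response element, AGAACA or its reverse complement TGTTCT, and for the full palindrome of AGAACA, any 3 bases and TGTTCT, which contains an arm on each side. Shown are the 250 bases before the start of Scnn1b (chr7:121864788-121865037, plus strand) and of Hsd11b1 (chr1:193242361-193242610, minus strand), the genes that passed the test between genotypes, and of Sgk1 (chr10:21993640-21993889, plus strand), in which the capitals mark the palindrome. Each is printed 5′ to 3′ on the strand of its gene.
Scnn1b: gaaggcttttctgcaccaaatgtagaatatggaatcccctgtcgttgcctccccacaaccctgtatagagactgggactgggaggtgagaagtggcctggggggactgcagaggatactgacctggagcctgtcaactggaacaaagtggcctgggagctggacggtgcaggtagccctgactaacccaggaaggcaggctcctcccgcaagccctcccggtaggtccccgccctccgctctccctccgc
Hsd11b1: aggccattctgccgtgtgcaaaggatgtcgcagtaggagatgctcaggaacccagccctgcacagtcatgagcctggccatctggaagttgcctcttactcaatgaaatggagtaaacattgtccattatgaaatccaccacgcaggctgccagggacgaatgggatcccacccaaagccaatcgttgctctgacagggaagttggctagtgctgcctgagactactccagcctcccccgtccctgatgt
Sgk1: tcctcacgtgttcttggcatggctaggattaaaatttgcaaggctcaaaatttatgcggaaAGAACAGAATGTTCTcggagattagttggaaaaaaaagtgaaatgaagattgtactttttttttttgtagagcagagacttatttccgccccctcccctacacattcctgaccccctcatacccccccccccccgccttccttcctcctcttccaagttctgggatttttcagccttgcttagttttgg

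The palindrome of Sgk1 lay 189 to 175 bases before this start, which is 1 of 6 starts of the gene in the table. Only 3 of all 32851 windows held the palindrome (0.00913%), and that of Sgk1 was among them. An arm occurred in 19% of all windows, and in 4 of the 13 windows of these genes, 3 of them of Sgk1 and 1 of Tsc22d3, the gene of the glucocorticoid-induced leucine zipper. The windows of Scnn1b, Scnn1g, Hsd11b1 and Nr3c2 held no arm. A match describes letters in a window and is no measured binding site, and its absence says only that the letters are not in that window.

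Hsd11b1 and Scnn1b passed the test between genotypes, both higher in Slc26a4-/-, and 8 of the 10 genes did not pass. None of the 10 was called lower. Over all genes 1.88% were called higher and 0.803% lower, and over all probe sets 1.19% and 0.54%. Of the 23 probe sets of these genes, 2 were called higher and 0 lower. Without adjustment, 5 of the 10 genes had p under 0.05 as higher and 1 as lower, against 8.48% and 6.42% of all genes, and of these Scnn1g (higher) and Hsd11b2 (lower) were below background on all arrays. In 4 genes (Scnn1a, Scnn1b, Nedd4l and Hsd11b1) all Slc26a4-/- arrays lay above all Slc26a4+/+ arrays, and in 2 (Sgk1 and Hsd11b2) all lay below, against 11.2% and 9.73% of all genes. The median log2 fold change was 0.32 over these 10 genes and -0.03 over all genes. With Scnn1b at its lower bound, given with its signals, the median of the 10 genes was 0.29. The probe set of highest average log2 signal stood for each gene, and the test was limma's moderated test on log2 signals with Benjamini-Hochberg adjustment over all 45037 probe sets. Nothing states whether the arrays of a genotype share litters, so the p-values measure the spread between these arrays.

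**Figure D1:**
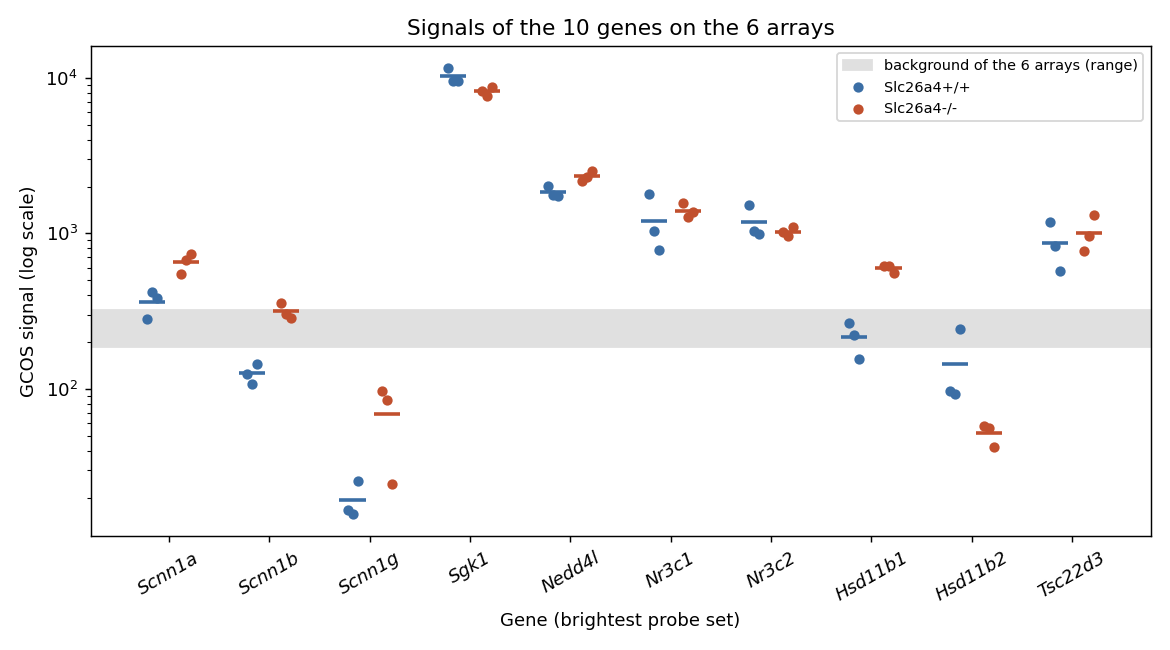
Signal (log axis) of the 10 genes on each of the 6 arrays, with bars at the mean of 3 arrays and a grey band over the background of the arrays, 187 to 319. Scnn1a, Scnn1b and Hsd11b1 lay higher on all 3 Slc26a4-/- arrays, and the signals of Scnn1g and Hsd11b2 lay below their own array's background throughout.

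The background of an array was taken from 44 probe sets of olfactory receptors, genes not expected in this tissue, as their 95th percentile and came to 199.7, 269 and 319 for Slc26a4+/+ against 187, 204 and 214 for Slc26a4-/-. By this measure 8 of the 10 genes lay above background on at least 2 arrays of a genotype. Scnn1g and Hsd11b2 lay below it on all 6 arrays. Mean signals ran from 666 to 725 after the scaling of the arrays, which itself brings them to a similar level. The median signal was 189 on Slc26a4+/+ replicate 3 and 140 to 155 on the other arrays. The arrays differed in other ways: the 3′ over 5′ signal ratio of Gapdh, a measure of RNA integrity, was 2.25, 7.19 and 10.5 on Slc26a4+/+ replicates 1 to 3 and 3.34 to 3.80 on the Slc26a4-/- arrays. The Y-linked gene Eif2s3y gave 639.9 to 1541 on the Slc26a4+/+ arrays and 3.1 to 3.6 on the Slc26a4-/- arrays, and Xist, transcribed from the inactive X chromosome of females, gave 771 to 3358 and 5529.6 to 5863. The sex of the pools therefore cannot be told apart from genotype. With the log2 Xist signal added to the fit neither Hsd11b1 nor Scnn1b passed (adjusted p = 0.453 and 0.443, limma), at fitted log2 differences of 1.51 and 1.64. Scnn1a came to 0.43 in that fit, from 0.87 without Xist, and passed in neither (adjusted p = 0.849 with Xist, limma). The Xist signals did not overlap between genotypes. Slc26a4 itself gave Slc26a4+/+ signals of 1354, 1262 and 793 against 520.2, 717 and 619 in Slc26a4-/- (log2 fold change -0.85, adjusted p = 0.119, limma), with no overlap and all above background. The sources used here do not state whether this probe set falls within the deletion.

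Among the channel subunits, Scnn1b, which encodes the β subunit, was higher in Slc26a4-/-. Its Slc26a4+/+ signals were 125, 107 and 146, against 358, 302 and 287 in Slc26a4-/- (probe set 1418475_at). Every Slc26a4-/- array was above every Slc26a4+/+ array, and the 3 Slc26a4+/+ signals were not above background. The difference is therefore a bound: Scnn1b was at least 1.22-fold higher in Slc26a4-/- (means 126 ± 19.4 and 315 ± 37.5, SD, n = 3). This sets the Slc26a4-/- mean against the background of the Slc26a4+/+ arrays, and the bound itself was not tested. The Slc26a4-/- signals of 302 and 287 lay below the highest of those backgrounds, 319. The fitted log2 difference of the measured signals was 1.33 (SE 0.27, adjusted p = 0.0394, limma). That difference is no bound, and it and its p-value rest on signals below background. The call was lost without Slc26a4+/+ replicate 2 (adjusted p = 0.120, limma) and without Slc26a4-/- replicate 1, 2 or 3 (adjusted p = 0.245, 0.190 and 0.191). Calls over all probe sets also fell, from 535 higher and 243 lower with all arrays. They came to 308 and 76 without Slc26a4+/+ replicate 2. Without Slc26a4-/- replicate 1, 2 or 3 they came to 190 and 67, 198 and 68, and 165 and 54. Without both Slc26a4+/+ arrays of high Gapdh ratio, replicates 2 and 3, a setting chosen after seeing the data, the fitted difference was 1.32. That setting leaves 1 Slc26a4+/+ array, which is assumed to vary like the Slc26a4-/- arrays. Only its differences are therefore given, apart from its part in the counts over all alternatives.

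Scnn1a, which encodes the α subunit, gave Slc26a4+/+ signals of 280.4, 418 and 383 against 551, 674 and 736 in Slc26a4-/- (probe set 1425088_at). All 6 lay above background, and the genotypes did not overlap. The ratio of Slc26a4-/- over Slc26a4+/+ was 1.83, or 0.87 on the log2 scale (SE 0.21, 95% interval 0.39 to 1.35), and it did not pass after adjustment over all probe sets (adjusted p = 0.0897, limma). Against Slc26a4+/+ replicate 1 alone, the array of low Gapdh ratio and the lowest Scnn1a signal, the log2 difference was 1.21. With all 6 arrays and the log2 Xist signal in the fit, the log2 difference was 0.43.

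Scnn1g, the gene of the γ subunit, gave Slc26a4+/+ signals of 16.6, 15.7 and 25.6 against 97.2, 85.4 and 24.3 in Slc26a4-/- (probe set 1419079_at). None of the 6 reached background, and the third Slc26a4-/- array lay within the range of Slc26a4+/+, so no fold is given. The fit did not call it (adjusted p = 0.373, limma). Scnn1b and Scnn1g are neighbouring protein-coding genes on chromosome 7, with the long noncoding gene Gm36848 between them.

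Sgk1, the kinase through which both receptors act on the channel, gave Slc26a4+/+ signals of 11516, 9528 and 9542 against 8211, 7646 and 8739 in Slc26a4-/- (probe set 1416041_at). The Slc26a4-/- arrays were all lower, by a margin that did not pass the test: the log2 fold change was -0.31 (SE 0.14, 95% interval -0.63 to 0.00, adjusted p = 0.428, limma). The probe set was far above background on every array.

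Nedd4l, the ubiquitin ligase that opposes SGK1, was represented by 6 probe sets. Probe set 1423269_a_at, which stands for the gene, gave Slc26a4+/+ signals of 2026, 1773 and 1748 against 2156, 2317 and 2527 in Slc26a4-/-. All Slc26a4-/- arrays were higher, with a log2 fold change of 0.34 (SE 0.14, 95% interval 0.03 to 0.64) that did not pass (adjusted p = 0.359, limma). The other probe sets did not share 1 direction. On 1441305_at and 1457374_at, above background on all arrays, the log2 fold changes were 0.11 and -0.04. Probe set 1437400_at was below background on all Slc26a4+/+ arrays and above it on all Slc26a4-/- arrays, at least 1.10-fold higher (means 216 and 285). Its measured signals did not pass (adjusted p = 0.575, limma). Probe sets 1456044_at and 1423270_at were below background on all arrays. When log2 signals were averaged over the 6 probe sets, those below background included, the value changed sign, to -0.04. The measured difference on 1423270_at, which is no fold, was -1.04.

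**Figure D2:**
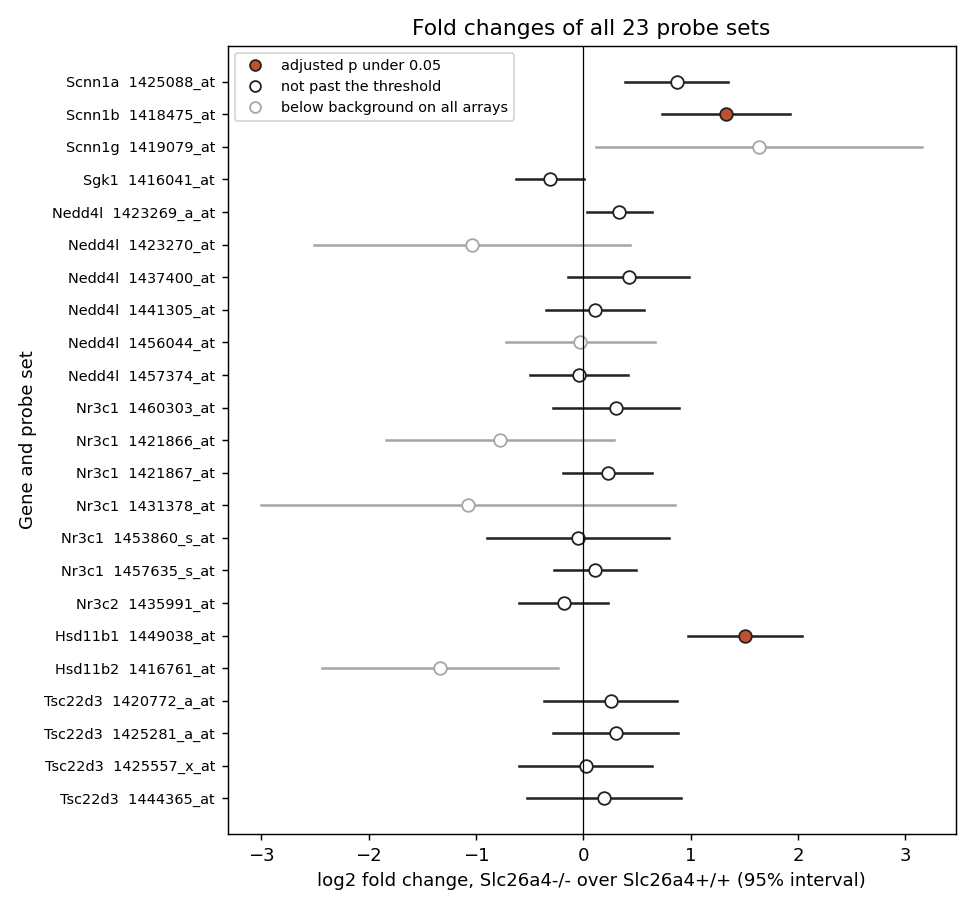
Log2 fold change of Slc26a4-/- over Slc26a4+/+ with its 95% interval (limma, 3 arrays per genotype) for the 23 probe sets. Filled circles mark the 2 that passed, Scnn1b at 1.33 and Hsd11b1 at 1.51, and grey marks the 6 that were below background on all arrays, whose values are no folds. The value of Scnn1b rests on Slc26a4+/+ signals below background.

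Neither receptor passed the test. Nr3c1, the glucocorticoid receptor, gave Slc26a4+/+ signals of 1786, 1032 and 783 against 1568, 1268 and 1365 in Slc26a4-/- (probe set 1460303_at). The genotypes overlapped, and the Slc26a4+/+ arrays spread more widely than the difference between the means. The log2 fold change was 0.30 (SE 0.26, 95% interval -0.29 to 0.90, adjusted p = 0.724, limma). On the Slc26a4+/+ arrays the signal was highest where the Gapdh ratio was lowest, and against replicate 1 alone the log2 difference was -0.36. Probe sets 1421867_at and 1457635_s_at, above background on all arrays, gave 0.23 and 0.11. The remaining 3 probe sets of the gene were below background on all arrays, or on all but 1 in the case of 1453860_s_at.

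Nr3c2, the mineralocorticoid receptor, gave Slc26a4+/+ signals of 1516, 1033 and 997 against 1017, 958 and 1090.4 in Slc26a4-/- (probe set 1435991_at). Only Slc26a4+/+ replicate 1 stood above the Slc26a4-/- arrays, and the genotypes overlapped. The log2 fold change was -0.19 (SE 0.18, 95% interval -0.60 to 0.23, adjusted p = 0.766, limma). Without that replicate it was 0.01.

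Of the enzymes that set the local level of active glucocorticoid, Hsd11b1 passed the test and Hsd11b2 did not. Hsd11b1, which regenerates active glucocorticoid, gave Slc26a4+/+ signals of 267, 222 and 156 against 616, 618 and 557 in Slc26a4-/- (probe set 1449038_at). The lowest Slc26a4-/- array was above the highest Slc26a4+/+ array. Slc26a4-/- was above background on all 3 arrays, and Slc26a4+/+ on replicate 1 alone, so the fold rests in part on signals not above background. The measured signals were higher in Slc26a4-/- by 2.84-fold, or 1.51 on the log2 scale (SE 0.24, 95% interval 0.98 to 2.04, adjusted p = 0.0124, limma; means 215 ± 55.5 and 597 ± 34.7, SD, n = 3). The Slc26a4+/+ signals fell in the order in which the Gapdh ratio rose, and against replicate 1 alone, the 1 above background, the log2 difference was 1.16. The call was lost without Slc26a4-/- replicate 1, 2 or 3 (adjusted p = 0.0872, 0.0852 and 0.0774, limma), at log2 fold changes of 1.48, 1.48 and 1.56. Calls over all probe sets fell in these settings as well, as given for Scnn1b.

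Hsd11b2, the enzyme that inactivates glucocorticoid, gave Slc26a4+/+ signals of 97.4, 93.2 and 243 against 57.6, 55.7 and 42.6 in Slc26a4-/- (probe set 1416761_at). All were below the background of their array. The Slc26a4-/- signals were lower without overlap, but no fold can be given below background and the fit did not call it (adjusted p = 0.297, limma).

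Tsc22d3, which encodes the glucocorticoid-induced leucine zipper and is a direct target of the glucocorticoid receptor, gave Slc26a4+/+ signals of 1189, 829 and 574 against 770.2, 954 and 1303 in Slc26a4-/- (probe set 1420772_a_at). The genotypes overlapped over most of their range. The log2 fold change was 0.25 (SE 0.28, 95% interval -0.36 to 0.87, adjusted p = 0.790, limma). It turned to -0.01 without Slc26a4+/+ replicate 3 and to -0.27 against Slc26a4+/+ replicate 1 alone. The gene is X-linked, and the genotypes differed in the transcripts of the sex chromosomes. Its other 3 probe sets, 1425281_a_at, 1425557_x_at and 1444365_at, overlapped between genotypes as well, at log2 fold changes of 0.30, 0.02 and 0.19.

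Wider lists of the pathway showed few calls, and their calls stand against 1.88% of all genes higher and 0.803% lower. Their counts without adjustment stand against 8.48% of all genes higher and 6.42% lower. Of 22 genes known to regulate ENaC, 21 were measured and 0 passed the test (limma, adjusted p under 0.05). Without adjustment, 0 had p under 0.05 as higher and 4 as lower. Their median log2 fold change was -0.19, against -0.03 over all genes. Usp2, a deubiquitinase that can counteract the removal of ENaC, had the smallest p. Its Slc26a4+/+ signals were 1611, 2164 and 2153, against 1239, 1252 and 1301 in Slc26a4-/-. The genotypes did not overlap, and the log2 fold change was -0.63 (SE 0.15, adjusted p = 0.0891, limma). Its other probe set, 1417169_at, was lower by 1.75-fold and passed (adjusted p = 0.0253). Spint2, an inhibitor of the serine proteases that activate ENaC, gave Slc26a4+/+ signals of 9336, 10342 and 12781 against 7907, 7963 and 8198 in Slc26a4-/-. It was lower on all Slc26a4-/- arrays and did not pass (log2 fold change -0.42, adjusted p = 0.284, limma).

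Of 16 chaperones and coregulators of the steroid receptors, 12 were measured and 0 passed, while 1 had an unadjusted p under 0.05 as higher and 3 as lower. Their median log2 fold change was -0.08. Fkbp4, an immunophilin of the receptor complex, gave Slc26a4+/+ signals of 1097, 963 and 1176 against 787, 757 and 759 in Slc26a4-/-. These did not overlap (log2 fold change -0.49, adjusted p = 0.186, limma). Nrip1, a corepressor of nuclear receptors, gave Slc26a4+/+ signals of 2814, 2146 and 5865 against 1684, 1519 and 2057 in Slc26a4-/-. It was also lower without overlap and did not pass (log2 fold change -0.92, adjusted p = 0.253, limma).

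Of 20 genes known as targets of glucocorticoids, 2 were called higher and 1 lower, against 1.88% and 0.803% of all genes. Their median log2 fold change was -0.17. Without adjustment, 4 had p under 0.05 as higher and 4 as lower. Cebpd, a transcription factor that is also part of acute-phase responses, gave Slc26a4+/+ signals of 250.3, 261 and 314 against 1548, 1677 and 2039.7 in Slc26a4-/-. All Slc26a4-/- arrays were far above the others (log2 fold change 2.67, SE 0.18, adjusted p = 0.000104, limma), and Slc26a4+/+ was above background on only 1 array, so the size of the difference rests in part on signals not above background. Lcn2, lipocalin 2, an iron-scavenging protein of innate immunity, gave Slc26a4+/+ signals of 4.6, 6.2 and 19.5 against 595, 394 and 584 in Slc26a4-/-. It was at least 2.00-fold higher, a bound since Slc26a4+/+ was below background on all arrays. The adjusted p of 0.00122 (limma) belongs to the measured signals, and the bound was not tested. Cdkn1a, an inhibitor of the cell cycle, went the other way, with Slc26a4+/+ signals of 5520.1, 6169.8 and 8835 against 2487, 3449.5 and 2855 in Slc26a4-/- (log2 fold change -1.21, SE 0.20, adjusted p = 0.0154, limma). Cdkn1a did not pass without Slc26a4+/+ replicate 2 or without Slc26a4-/- replicate 1 or 3, settings in which calls over all probe sets fell. Without Slc26a4+/+ replicate 1 the calls in this list were 6, and those over all probe sets rose to 1048 higher and 666 lower. Cebpd and Cdkn1a each had 2 probe sets, and the values above are of the brighter. The other did not pass, and neither gene passed when log2 signals were averaged over its probe sets.

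The other targets did not pass on the probe sets that stand for them. Those named here were chosen after their values were seen. Of the 4 lower without adjustment, Zbtb16, a zinc finger transcription factor, Ddit4, an inhibitor of mTOR signalling, and Mt1, a metallothionein, overlapped between genotypes, at log2 fold changes of -0.91, -0.72 and -0.60 (adjusted p = 0.270, 0.269 and 0.343, limma). Fkbp5, a widely used readout of the glucocorticoid receptor, gave Slc26a4+/+ signals of 795, 1037 and 773 against 903, 1061 and 1147 in Slc26a4-/-. The genotypes overlapped (log2 fold change 0.26, adjusted p = 0.622, limma). Tgm2, a transglutaminase, did not pass on its main probe set, 1437277_x_at (log2 fold change 0.90, adjusted p = 0.0875, limma). It passed on 1433428_x_at and 1455900_x_at (log2 fold changes 1.24 and 1.04, adjusted p = 0.00692 and 0.0307).

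**Figure D3:**
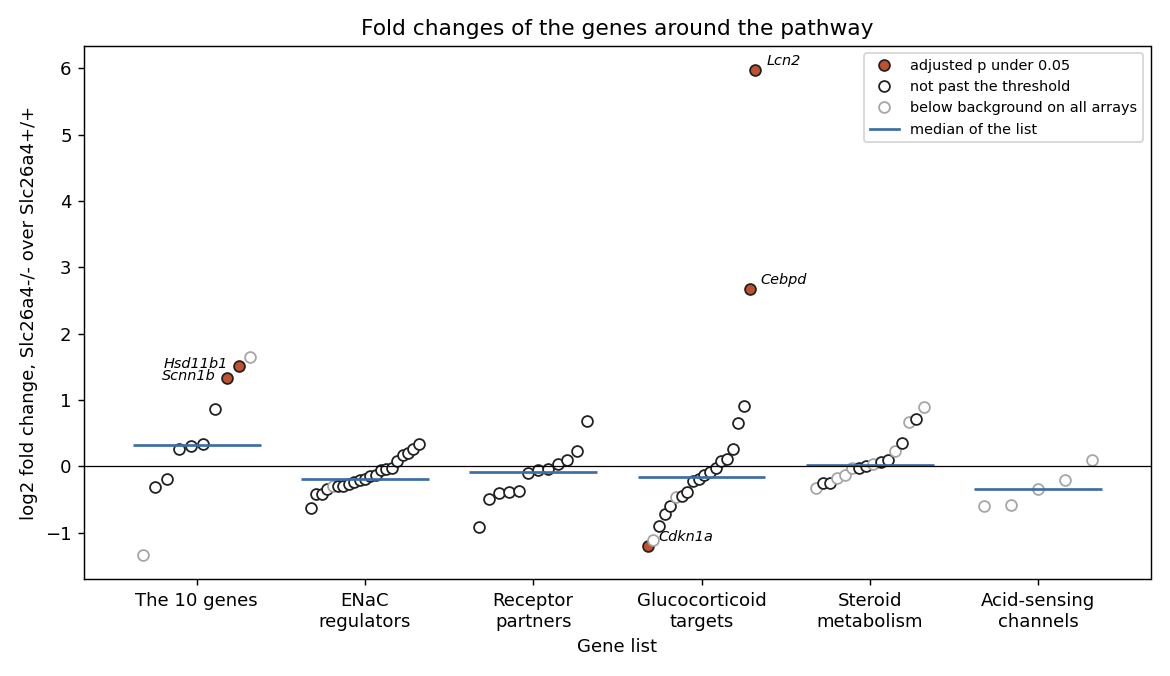
Log2 fold change of Slc26a4-/- over Slc26a4+/+ for each measured gene (circles), sorted within the 10 genes and within 5 lists around them, with a bar at the median of each list. Medians ran from -0.34 for the acid-sensing channels, all below background on all arrays, to 0.32 for the 10 genes. Filled circles mark the genes that passed, and grey circles mark genes below background on all arrays, whose values are no folds. The values of Lcn2 and Scnn1b rest on Slc26a4+/+ signals below background.

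Of 19 genes of steroid synthesis, transport and metabolism, 16 were measured, 8 of them were below background on all arrays, and 0 passed. Without adjustment, 2 had p under 0.05 as higher and 0 as lower. Their median log2 fold change was 0.02. Abcb1a, an efflux pump that carries corticosteroids among other substrates, gave Slc26a4+/+ signals of 795, 1256 and 647 against 1149.9, 1681 and 1474 in Slc26a4-/-. The genotypes overlapped (log2 fold change 0.71, adjusted p = 0.260, limma). Hsd17b12, a reductase of fatty acid elongation that can also act on oestrone, gave Slc26a4+/+ signals of 5612, 5409 and 4897 against 6874, 6495 and 6917 in Slc26a4-/-. These were higher without overlap and did not pass (log2 fold change 0.35, adjusted p = 0.291, limma). H6pd, which supplies HSD11B1 with its cofactor and is named here after its values were seen, gave Slc26a4+/+ signals of 639, 835 and 823 against 742, 633 and 555 in Slc26a4-/-. Its arrays overlapped (log2 fold change -0.25, adjusted p = 0.663, limma). The 5 acid-sensing ion channels, the relatives of ENaC, were below background on all arrays and 0 passed, with summed signals of 278 to 627 in Slc26a4+/+ and 292 to 388 in Slc26a4-/- and adjusted p-values of 0.805 for Asic1 and 0.804 for Asic2.

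Markers of some other cell types differed between genotypes on the same arrays, and those of others did not. Calls among these and the following markers stand against 1.88% of all genes higher and 0.803% lower. Markers without overlap stand against 11.2% of all genes higher and 9.73% lower. For Reissner's membrane 2 of 3 markers were measured, both were higher without overlap, 1 passed, and their summed signal was 158 to 364 in Slc26a4+/+ and 3237 to 5102 in Slc26a4-/-. Slc26a7, an anion transporter of that membrane, gave Slc26a4+/+ signals of 139, 299 and 142 against 4256, 4793 and 3055 in Slc26a4-/- (log2 fold change 4.46, adjusted p = 0.000104, limma). In Slc26a4+/+ only 1 of these signals exceeded background. Otx2, a transcription factor, was below background on all Slc26a4+/+ arrays and above it on 1 Slc26a4-/- array (adjusted p = 0.122, limma). The 3 markers of the outer sulcus and root cells, Epyc, Aqp5 and Slc26a4, did not pass. Their sums were 2937 to 5717 in Slc26a4+/+ and 2679 to 4085 in Slc26a4-/-. Slc26a4 is the gene disrupted in Slc26a4-/-, so it and this sum cannot serve as a measure of these cells here. Epyc and Aqp5 overlapped between genotypes, and Epyc ran from 500 to 2774 on the Slc26a4+/+ arrays.

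Macrophage markers were higher on all Slc26a4-/- arrays for 8 of 8 genes, 5 of which passed. Their sums were 4773.5 to 6613 in Slc26a4+/+ and 29730.4 to 30011 in Slc26a4-/-. Csf1r did not pass on its main probe set but passed on 1419873_s_at (adjusted p = 0.0116, limma). Of 6 markers of spiral ligament fibrocytes 4 passed as higher, with sums of 6120.5 to 9018.5 and 11362 to 13190.3. The other 2, Coch and Pou3f4, overlapped between genotypes, at log2 fold changes of 0.17 and -0.75 (adjusted p = 0.885 and 0.561, limma). The defining markers of stria vascularis itself were above background on all arrays with 2 exceptions, Pmel, below it on all but 1 Slc26a4+/+ array, and Bsnd, below it on 1 Slc26a4-/- array. Those of marginal cells summed to 40979 to 50549.6 in Slc26a4+/+ and 28337 to 29801 in Slc26a4-/- (2 of 6 lower, 0 higher). Of the 6, 5 were lower without overlap, and Esrrb passed as lower on another probe set, 1436926_at (adjusted p = 0.00788, limma). The sums for intermediate cells were 39427.5 to 47460.2 and 43572 to 43899 (1 of 4 higher). Pmel, which passed, and Tyr, which did not, were higher without overlap. Kcnj10 and Dct, which make up most of that sum, overlapped. For basal cells the sums were 33826 to 34429 and 31702 to 33060 (0 of 3 called). Of 3 endothelial markers 0 were called, with sums of 687.5 to 1051.5 and 1289 to 1419, and of 2 red blood cell markers measured 0 were called, with sums of 318 to 896 and 166 to 376. No summed list was at 0 on any array. The part of any of these cell types in the differences of Scnn1a, Scnn1b and Hsd11b1, or of Cebpd and Lcn2, was not tested.

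**Figure D4:**
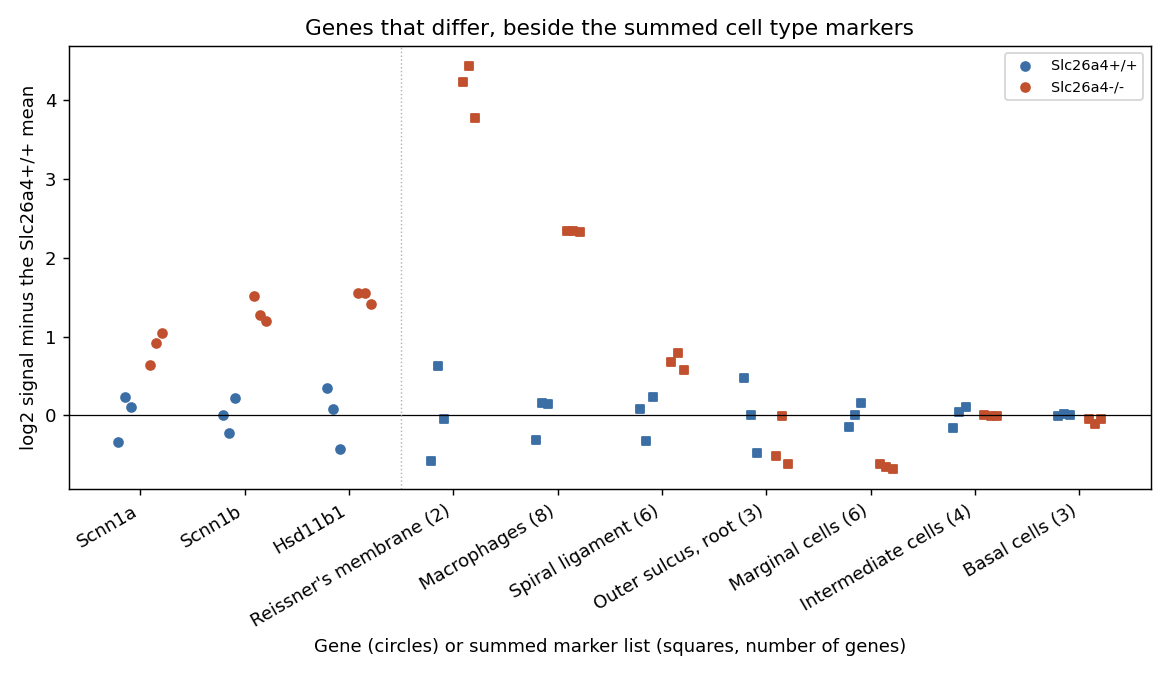
Log2 signal of 3 genes (circles) and of 7 summed marker lists (squares, number of genes in brackets) on each array, relative to the mean of the Slc26a4+/+ arrays, which lies at 0. Scnn1a, Scnn1b and Hsd11b1 lay above the Slc26a4+/+ arrays on every Slc26a4-/- array, as did the sums for Reissner's membrane, macrophages and spiral ligament. The sums for marginal cells (-0.68 to -0.61) and basal cells (-0.11 to -0.05) lay below. The sum for intermediate cells overlapped, as did that for outer sulcus and root cells, which includes Slc26a4. Scnn1a did not pass the test.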

How the data were processed

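RNA of stria vascularis from 3 Slc26a4+/+ and 3 Slc26a4-/- pools was measured on 1 gene chip each. The authors deposited intensity values, 1 signal for each probe set of an array, which GCOS had corrected for background and scaled. The GCOS version, the scaling target and the detection calls of single arrays were not given in the sources used here. Groups and replicate numbers came from the labels, and age, pooling and amplification from the Methods. Of 45101 probe sets, 64 controls were left out, and 34945 of the rest had 1 gene symbol, 932 several and 9160 none. Only probe sets with 1 symbol were named.

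A floor of 1 was put under the signals (172 values), which were not normalized again. Genotypes were compared on the log2 scale with limma 3.58.1 (R 4.3.3), letting the prior spread follow the signal. Two-sided p-values were adjusted over 45037 probe sets (Benjamini-Hochberg, threshold 0.05). The number of arrays limits the precision. Where a genotype lay below background on all arrays, the fold is a bound against that background, and the p-value tests the measured signals. All 10 genes were named, and in each pathway list the genes past the threshold or else the 2 with the smallest p. The genes and lists were chosen with earlier results of these data known. Alternatives changed the floor, scaling, trend, weights, filter, pairing, sex covariate, arrays and probe set rule. Protein, microscopy and quantitative RT-PCR data were not used here.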

Additional observations from a re-analysis of the deposited data

How the results depend on the processing

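The count of 2 genes called, and likewise of 2 probe sets, became 1 with a pseudocount of 64, with centring on the median and with a minimum mean signal of 300 (7 genes tested). It became 0 without the trend, with a t-test paired by replicate number and with Xist as covariate. Array weights made it 4, adding Scnn1a and Nedd4l. Over all probe sets they raised the calls from 535 higher and 243 lower to 2372 and 1712. The rise to 4 is therefore not particular to these genes. The Methods name paired t-tests in general and do not state that arrays were paired. By that test 0 of all probe sets passed, so its 0 is not particular to these genes. Leaving out 1 array gave 0 to 2, while calls over all probe sets ran from 165 to 1048 higher and 54 to 666 lower. With the replicate number as a block the count for these genes was 1, since Scnn1b had an adjusted p of 0.0592 (limma). The numbers did not pair the arrays, as the deviations of arrays with the same number correlated at 0.09, 0.03 and 0.03 and 1 of 3 numbers fitted its own pair best. Hsd11b1 passed under 12 of 19 alternatives (log2 fold changes 1.16 to 1.68), Scnn1b under 8 of 18 (1.00 to 1.64) and Scnn1a under 2 of 19 (0.43 to 1.21), 1 of them with a lone Slc26a4+/+ array, always higher in Slc26a4-/-. Centring on the median gave Hsd11b1 an adjusted p of 0.0614 and turned the split of all calls from 535 higher and 243 lower to 359 and 89.

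The 0 calls among ENaC regulators became 5 with array weights, 1 (Usp2) with the mean over all probe sets and 0 to 1 when 1 array was left out. The 3 calls among glucocorticoid targets became 6 with array weights, 5 with the replicate block, 1 (Lcn2) with the mean over all probe sets and 0 with the paired t-test or the Xist covariate. With 1 array left out they ran from 2 to 6. The 0 calls in steroid metabolism became 1 with array weights. Array weights raised the calls over all probe sets as well, as given above, so these rises are not particular to the lists. Direction turned for genes that did not pass. With the mean over all probe sets Nedd4l came to -0.040 and Nr3c1 to -0.21. These means include 1423270_at of Nedd4l, at -1.04, and 1421866_at and 1431378_at of Nr3c1, at -0.77 and -1.08. Those probe sets were below background on all arrays, where values are no folds. Probe sets above background on all arrays gave 0.34, 0.11 and -0.04 for Nedd4l and 0.30, 0.23 and 0.11 for Nr3c1. Without both Slc26a4+/+ arrays of high Gapdh ratio Nr3c1 came to -0.36 and Tsc22d3 to -0.27. Nr3c2 came to 0.17 with the Xist covariate. With 1 array left out Nr3c2 ran from -0.29 to 0.0079 and Tsc22d3 from -0.010 to 0.51. The causes of these changes were not tested. By limma, 27 probe sets in all passed with the Xist covariate and 0 by the paired t-test.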
